A study of Mus musculus with 35 samples.

Results

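Single cells that carried YFP after 5 days of lineage tracing from Lgr5-expressing cells of mouse small intestine were compared with single Lgr5-EGFP cells sorted from crypts. The comparison used every well of the table of YFP cells (5 plates) and of the table of Lgr5-EGFP cells (2 plates) with at least 1500 counts of genes. Of the 624 wells, 494 were kept, 335 YFP wells (80, 78, 74, 35 and 68 per plate) and 159 Lgr5-EGFP wells (75 and 84). The tables of the whole series held 1872 wells, 1371 of them with at least 1500 counts. Plates, not wells, were the replicates, so each group value below has n = 5 YFP and n = 2 Lgr5-EGFP plates.

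All mice were C57BL/6 and all cells came from small intestinal crypts released with EDTA, dissociated with trypsin and sorted singly into 96-well plates. The Lgr5-EGFP group has the genotype Lgr5-EGFP, a reporter of Lgr5 transcription, and its cells were taken ex vivo as EGFP-positive. The YFP group has the genotype Lgr5-YFP: Cre expressed from Lgr5 removed a loxP-flanked stop so that the Rosa26 promoter drove YFP, and cells were taken after 5 days of tracing. YFP therefore marks labelled Lgr5 cells and all their descendants, stem cells included, and not one cell type. The labels name 2 models of sequencer without saying which plate ran on which. The labels give no age, no inducing agent and no number of animals, so p-values measure only the spread between plates, which may be technical, and the mouse line, the tracing and the sort cannot be told apart from the cell population. YFP plate 4 entered with wells 1 to 48 only, since the submitters describe its wells from 49 on as unrelated.

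Lgr5 is a receptor for R-spondins that strengthens Wnt signalling in the stem cells at the crypt base. Their daughters divide several times in the transit-amplifying zone and then differentiate, mostly into absorptive enterocytes that digest and take up nutrients, and otherwise into Paneth, goblet, enteroendocrine and tuft cells. The epithelium also defends itself with secreted lectins such as the Reg3 proteins and can present peptides on MHC class II molecules.

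Each well was read by CEL-seq, which counts the 3′ ends of polyadenylated transcripts with molecular barcodes. Kept plates held 287001 to 806579 counts in the YFP group and 928113 and 1209081 in the Lgr5-EGFP group. Median counts per kept well were 5576 to 7739.5 on the YFP plates and 9543 and 13131.5 on the Lgr5-EGFP plates. Spike-in RNAs took 6.22% to 7.76% of counts on the YFP plates against 0.884% and 0.922% on the Lgr5-EGFP plates. After thinning of each well to 1500 counts, the median number of genes per well was 917 to 933 on YFP plates and 1057 and 1090 on Lgr5-EGFP plates, and without thinning 2311 to 2850 against 3978 and 4918. Depth, spike-in share and gene number thus separated the groups as the labels do, and their part in the results was not tested. No 2 kept wells held identical values.

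YFP plates 4 and 5 stood apart from plates 1 to 3. Of 3721 tested genes with a mean of at least 50 CPM, 25 had levels on both plates 4 and 5 less than 0.5 times the lowest of plates 1 to 3, and 0 had the opposite pattern. Rplp2, a ribosomal stalk protein named after its values were seen, stood at 1321, 1395, 1361, 19.6 and 15.6 CPM on the YFP plates and 321 and 286 CPM on the Lgr5-EGFP plates. Lipid genes such as Apoa1 were also among the 25. Counts of genes are therefore also given with YFP plates 1 to 3 only.

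Of 9065 genes tested, 1332 were higher in YFP cells (14.7%) and 998 were lower (11.0%) by edgeR's quasi-likelihood test on plate sums at a false discovery rate of 0.05 (Benjamini-Hochberg). With YFP plates 1 to 3 only the counts were 1550 and 1165, and with only 1 Lgr5-EGFP plate kept they were 665 and 439 or 779 and 420. The median log2 fold change of all genes tested was -0.0041. With library totals in place of TMM factors it was -0.44, with 643 genes higher and 3314 lower, so directions below are relative to the bulk of genes, and counts without TMM factors are given where they turn the direction of a list. Levels below are CPM, the usual depth-scaled unit, with library size multiplied by the TMM factor.

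The gene that named both sorts was only moderately lower in the progeny. Lgr5 (chr10:115450311-115587780, GRCm38) stood at 83.00, 49.3, 66.99, 102 and 67.8 CPM on the 5 YFP plates and at 152 and 115 CPM on the 2 Lgr5-EGFP plates. All YFP plates lay below both Lgr5-EGFP plates, and the log2 fold change was -0.91 ± 0.20 (SE) with adjusted p = 0.0043 (edgeR quasi-likelihood test). The means were 73.8 against 134 CPM. Lgr5 was not called without Lgr5-EGFP plate 1 (edgeR adjusted p = 0.0939).

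The largest changes among called genes whose plates did not overlap between groups and whose higher group reached 50 CPM are named by rank. The 10 largest increases were Sst, Apoa1, Rbp2, Alpi, Apoa4, Lct, Ptchd1, Cyp3a25, Apoc3 and Rorb. The 10 largest decreases were Retnlb, 1600029D21Rik, Gm15308, Bex1, Cd177, Dusp22, Reg3b, Reg3g, Gm7849 and Cfi. Somatostatin, Sst, a hormone of enteroendocrine D cells, was uneven at 1.43, 75.3, 669.9, 749 and 1.74 CPM on the YFP plates with 0 counts in Lgr5-EGFP wells. On YFP plates 1 and 5 these levels were 1 count each, so Sst passed the rule of no overlap there by 1 count. Over all YFP plates together Sst was at least 193-fold higher, a bound carried by plates 2 to 4. Intestinal alkaline phosphatase, Alpi, stood at 166, 139.6, 226, 27.4 and 109 CPM on the YFP plates with 0 counts in Lgr5-EGFP wells, at least 116-fold higher. Retnlb, a resistin-like protein known from goblet cells, stood at 0, 0, 3.53, 0 and 0 CPM on YFP plates and 34.2 and 69.3 CPM on Lgr5-EGFP plates (2 against 142 counts, a ratio of 76.8 towards Lgr5-EGFP with an exact 95% counting interval of 20.9 to 640.4). Bex1 stood at 1.43, 2.74, 3.53, 0 and 6.95 CPM on YFP plates and 105 and 83.9 CPM on Lgr5-EGFP plates (log2 change -4.82 ± 0.33 (SE), edgeR adjusted p = 2.9e-06), and complement factor I, Cfi, differed by -3.03. YFP plate 4 had the lowest level of Apoa1, Rbp2, Alpi, Apoa4, Lct, Cyp3a25 and Apoc3. Sst was not called without YFP plate 3 or Lgr5-EGFP plate 1 or 2 (edgeR adjusted p = 0.0536 to 0.155).

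The labelled identities were checked against cell type markers. Of 16 enterocyte markers tested, 13 were higher in YFP cells and 0 lower, and of 16 stem cell markers 0 were higher and 7 lower, against 14.7% higher and 11.0% lower among all genes tested. Paneth markers (9 of 16 higher, 1 lower) and goblet markers (4 of 13 higher) were present in both groups. The Paneth list did not hold every defensin gene. At least 1 outside it was lower on every YFP plate (13.9 to 357 CPM) than on both Lgr5-EGFP plates (743 and 1710 CPM). The Paneth list took 1.55, 6.50, 7.29, 5.97 and 3.75 percent of counts on the YFP plates and 0.9 and 2.43 percent on the Lgr5-EGFP plates, ranges that overlap. Immune markers took at most 0.00906% of counts on any plate and stromal and endothelial markers at most 0.00431%. The sections below turn to functional groups beyond these markers, 41 lists in all, which are described by counts and medians with no test of a list. On plate sums, fewer cells with a transcript and less of it per cell cannot be told apart.

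Reg3b and Reg3g, C-type lectins that act on bacteria at the mucosal surface, were abundant on both Lgr5-EGFP plates and far rarer in YFP cells, while other defence genes went the other way. Reg3b (chr6:78370657-78373466) stood at 382, 278, 354, 659 and 509 CPM on the YFP plates and 4807 and 4243 CPM on the Lgr5-EGFP plates. Reg3g (chr6:78466269-78468872) stood at 558, 288, 506, 631 and 363 CPM on the YFP plates and 4340.1 and 3903 CPM on the Lgr5-EGFP plates. No YFP plate came near either Lgr5-EGFP plate for these genes. The log2 fold changes were -3.39 ± 0.23 (SE) and -3.14 ± 0.22 (SE), with adjusted p = 2.9e-06 and 2.9e-06 (edgeR).

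Reg3b and Reg3g were also counted in fewer YFP wells. At 1500 counts per well, less transcript per cell also lowers this share, so it was not told apart from fewer cells with the transcript. In wells thinned to 1500 counts, Reg3b was counted in 15, 15.4, 10.8, 8.57 and 30.9 percent of wells on the YFP plates and in 92 and 95.2 percent on the Lgr5-EGFP plates. Reg3g was counted in 22.5, 14.1, 31.1, 17.1 and 30.9 percent and in 100 and 94.05 percent. Without thinning the mean shares were 39.5 and 99.4 percent for Reg3b. The 34 YFP wells richest in Reg3b held 87.1% of its counts, against 33.1% in the 16 richest Lgr5-EGFP wells. The 5 against 2 plates cannot give a two-sided exact permutation p below 0.0952, the value reached by both genes. Free RNA also gives counts in wells, and its part was not tested: Lyz1, a Paneth cell product, was counted in 38.2% and 24.6% of thinned YFP and Lgr5-EGFP wells, while the 34 and 16 richest wells held 96.5% and 96.7% of its counts.

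Among the 13 defence genes tested, 8 were higher in YFP cells and 3 lower, with a median log2 fold change of 1.14. The higher ones included Ccl25, the gut-homing chemokine, at 539 ± 77.6 CPM (SD) against 193 ± 12.5 CPM (log2 change 1.49 ± 0.17 (SE), edgeR adjusted p = 6.5e-05). They also included Lypd8, which keeps flagellated bacteria off the epithelium (log2 fold change 1.35), Btnl1, a butyrophilin-like protein recognised by intraepithelial lymphocytes (1.97), Il18 (1.69) and the polymeric immunoglobulin receptor Pigr (0.47). Other regenerating-family genes were higher, Reg1 with a log2 fold change of 1.79 and Reg3a with 2.03, and as Reg3 genes are close copies the split of reads between them is uncertain. The third lower member was Duoxa2, the maturation factor of the dual oxidase Duox2, at -1.79. Duoxa2 was not called without YFP plate 2 or Lgr5-EGFP plate 1 or 2 (edgeR adjusted p = 0.0639 to 0.141). Pigr was not called without Lgr5-EGFP plate 2 (edgeR adjusted p = 0.16). Reg1 was not called without YFP plate 2 or 3 or Lgr5-EGFP plate 1 or 2 (edgeR adjusted p = 0.0522 to 0.296). Reg3a was not called without Lgr5-EGFP plate 1 (edgeR adjusted p = 0.0821).

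**Figure D1:**
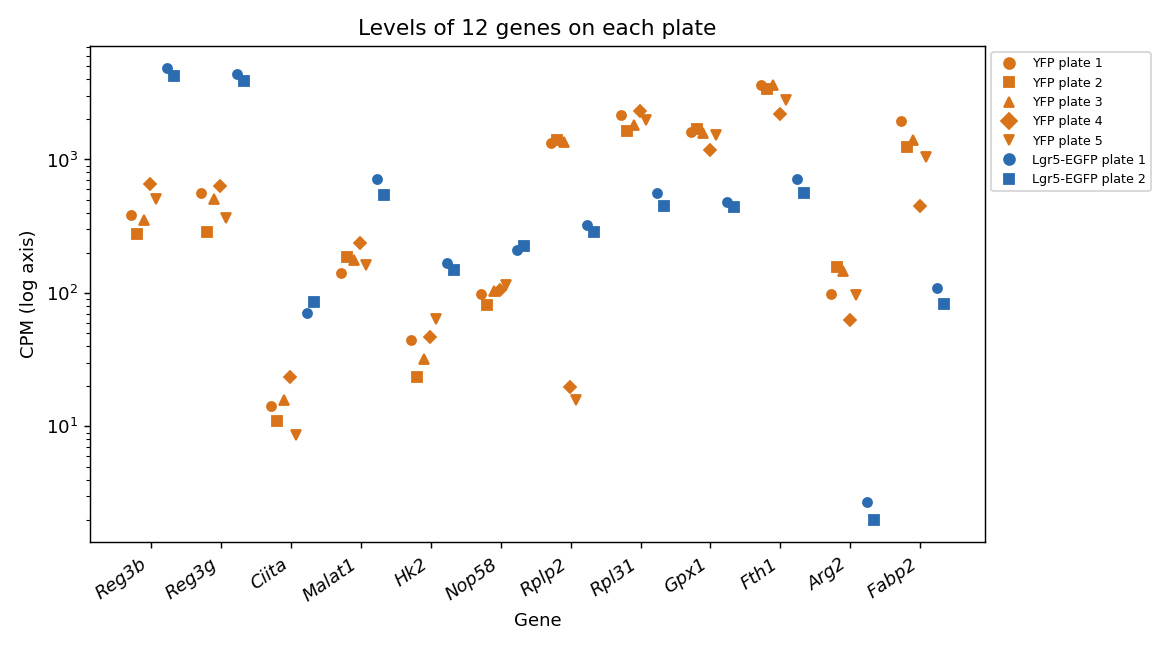
Levels of 12 genes (CPM on a log axis) on each of the 5 YFP plates (orange) and 2 Lgr5-EGFP plates (blue). Reg3b, Reg3g, Ciita, Malat1 and Hk2 lay lower on every YFP plate, Arg2, Fth1, Gpx1 and Rpl31 lay higher on every YFP plate, and Rplp2 split YFP plates 1 to 3 from plates 4 and 5.

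MHC class II genes, which load and present peptides of extracellular origin to CD4+ T cells, formed the list with the largest share of lower members. Of 11 members 7 were tested, 6 of these were lower in YFP cells and none was higher (median log2 fold change -1.25). Ciita, the transactivator that switches class II genes on, stood at 14.3, 10.95, 15.9, 23.5 and 8.69 CPM on the YFP plates and 70.2 and 85.9 CPM on the Lgr5-EGFP plates (log2 change -2.52 ± 0.24 (SE), edgeR adjusted p = 1.9e-05). The chains themselves followed with smaller differences. H2-Aa stood at 243, 145, 242, 122 and 222 CPM on YFP plates and 521 and 419.6 CPM on Lgr5-EGFP plates (log2 change -1.25 ± 0.22 (SE), edgeR adjusted p = 0.0011). H2-Eb1 stood at 240.4, 146, 185, 122 and 188 CPM and 490.2 and 432 CPM (-1.36 ± 0.20 (SE), edgeR adjusted p = 0.00024), and H2-Ab1 differed by -1.09. All 4 of these genes were called and their plates did not overlap between groups, a pattern whose share among all tested genes is not given here.

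The peptide exchange factors H2-DMa (log2 fold change -1.06) and H2-DMb1 (-1.45) were lower as well. The invariant chain Cd74 was not called: it stood at 369, 220.4, 266, 199.99 and 111 CPM on YFP plates and 345 and 252 CPM on Lgr5-EGFP plates, ranges that overlap (log2 change -0.34 ± 0.30 (SE), edgeR adjusted p = 0.45). In thinned wells H2-Aa was counted in 24.6% of YFP and 58.8% of Lgr5-EGFP wells, and without thinning in 57.4% and 97.5%. Its counts came from 155 of 159 Lgr5-EGFP wells. The whole list of immune cell markers took at most 0.00226% of counts on the Lgr5-EGFP plates. Free RNA also gives counts in wells, and the part of free RNA or of other cells in the class II counts was not tested. With either Lgr5-EGFP plate left out, 6 of 7 members were still called lower.

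Promoters of class II genes share a conserved set of elements, among them the Y box bound by NF-Y, and are shown because 6 of the 7 tested members were lower. RefSeq promoters (GRCm38.p6, 250 bases before to 50 bases after the gene start) matched 8 of the 11 members. The Y box was searched as CTGATTGG on both strands of the 250 bases before the start. It was found for 4 of 8 members (50%), H2-Aa, H2-Eb1, H2-Eb2 and H2-Oa, against 4.43% of 27025 genes in the same table. H2-Eb2, H2-DMb2, H2-Oa and H2-Ob were not tested for a change, and of the 4 tested members with a promoter 2 held a match. The match lay 51 bases before the start of H2-Aa and 62 bases before that of H2-Eb1. The 140 bases before the start are printed 5′ to 3′ on the gene's strand, with a match in capitals, for H2-Aa (chr17:34287824-34287963, minus strand), H2-Eb1 (chr17:34305727-34305866, plus strand) and, without a match, H2-DMb1 (chr17:34153051-34153190, plus strand).
H2-Aa: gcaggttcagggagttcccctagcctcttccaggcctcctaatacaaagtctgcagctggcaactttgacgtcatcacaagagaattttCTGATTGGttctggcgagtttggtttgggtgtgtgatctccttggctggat
H2-Eb1: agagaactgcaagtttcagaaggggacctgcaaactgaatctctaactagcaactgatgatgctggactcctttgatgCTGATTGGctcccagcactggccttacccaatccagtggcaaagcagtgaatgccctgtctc
H2-DMb1: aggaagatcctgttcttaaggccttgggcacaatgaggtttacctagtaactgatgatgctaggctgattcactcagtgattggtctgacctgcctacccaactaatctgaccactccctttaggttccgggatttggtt
A match is a description of letters, and H2-DMb1 was lower in YFP cells with no exact match in this window. Its printed sequence holds gtgattgg, 1 letter from the motif searched, so the lack of an exact match does not show that a Y box is absent. The other motifs searched in the same way were an HNF4 motif, CAAAGTCCA, in 0 of 23 promoters of lipid uptake genes (0.451% of all), a sterol element, TCACCCCAC, in 1 of 16 of cholesterol genes (0.555% of all), and E2F motifs, TTTCCCGC or TTTGGCGC, in 7 of 32 of DNA replication genes (1.51% of all).

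Interferon response genes and MHC class I genes differed less. Of 14 interferon response genes tested, 4 were lower and 0 higher (median log2 fold change -0.54). They included Iigp1, an immunity-related GTPase with 1 count in YFP and 32 counts in Lgr5-EGFP wells (ratio 34.6 towards Lgr5-EGFP, exact 95% counting interval 5.78 to 1410), Gbp7 (-1.86) and Irf8 (-0.65), and 1 of the list was lower with Lgr5-EGFP plate 1 left out. Of 18 class I and peptide loading genes 4 were higher, B2m (0.72), H2-Q1 (1.69) and the proteasome activators Psme1 and Psme2, and 1 was lower, H2-Q4 (-2.45). Without TMM factors 1 was higher and 8 were lower. H2-Q genes are near copies of each other, so the split of reads between them is uncertain. B2m and Gbp7 were not called without Lgr5-EGFP plate 2 (edgeR adjusted p = 0.0713 to 0.284). Irf8 was not called without Lgr5-EGFP plate 1 (edgeR adjusted p = 0.0686). Psme1 and Psme2 were not called without Lgr5-EGFP plate 1 or 2 (edgeR adjusted p = 0.0633 to 0.0904).

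Nutrient handling genes were widely higher in the progeny on plate sums. In YFP cells 21 of 25 tested genes of lipid uptake and chylomicron assembly were higher and 0 lower (median log2 fold change 2.15). The same held for 13 of 15 genes of carbohydrate digestion and fructose use (median 1.33) and 10 of 13 brush border peptidases (median 2.98). As a share of counts the peptidase list overlapped between groups. It took 0.137, 0.106, 0.122, 0.0777 and 0.0886 percent on the YFP plates and 0.0789 and 0.0801 percent on the Lgr5-EGFP plates. Counts of these lists were more concentrated in few wells among YFP cells. For each list, the 34 richest YFP wells held 53.4% of lipid, 40.1% of carbohydrate and 41.4% of peptidase counts. The 16 richest Lgr5-EGFP wells held 29.7%, 27.0% and 27.9%. In the median well these lists took 0.297, 0.189 and 0.0824 percent in YFP cells. The Lgr5-EGFP values were 0.101, 0.126 and 0.0774 percent. Fabp2, a fatty acid carrier, stood at 1938, 1239, 1405, 447 and 1053 CPM on the YFP plates and 109 and 83.3 CPM on the Lgr5-EGFP plates (log2 change 3.67 ± 0.45 (SE), edgeR adjusted p = 7.8e-05). It was lowest on YFP plate 4 and still above both Lgr5-EGFP plates there. Mttp, which loads lipid onto apolipoprotein B, stood at 222 ± 80.8 against 17.1 ± 8.85 CPM (log2 fold change 3.68). Mogat2, an acyltransferase of triglyceride resynthesis, differed by 4.53. Mttp differed by 3.28 without Lgr5-EGFP plate 1 and by 4.37 without plate 2.

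The fructose enzymes Khk (log2 fold change 2.26, edgeR adjusted p = 4.2e-05) and the triokinase Dak (1.33) were higher in YFP cells. The disaccharidase Mgam did not follow, at 352 ± 54.3 against 334 ± 32.1 CPM (log2 change 0.08 ± 0.17 (SE), edgeR adjusted p = 0.77), while sucrase-isomaltase, Sis, differed by 4.82. Lactase, Lct, had 0 counts in Lgr5-EGFP wells, where 3 counts over the group would be the limit of detection, and was at least 57.8-fold higher in YFP cells. The carbohydrate list took 0.28, 0.262, 0.269, 0.157 and 0.227 percent of counts on the YFP plates and 0.133 and 0.135 percent on the Lgr5-EGFP plates, so plate 4 was nearest to them. Sis differed by 4.30 without Lgr5-EGFP plate 1 and by 5.91 without plate 2.

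Among the peptidases, Enpep, an aminopeptidase, stood at 75.5 ± 33.00 against 2.23 ± 0.612 CPM (log2 fold change 5.03) and the angiotensin-converting enzyme Ace at 45.7 ± 19.99 against 5.81 ± 0.684 CPM (3.06). Of 13 amino acid and peptide transporters 7 were higher, including Slc7a8 (2.29) and Slc7a7 (1.77), and 1 was lower, the glutamine carrier Slc1a5 (-0.57), and with Lgr5-EGFP plate 1 left out 4 were higher and 0 lower. The neutral amino acid transporter Slc6a19 had 40 counts in YFP and 0 in Lgr5-EGFP wells, a difference of at least 11.7-fold. The transporter list as a whole took a mean of 0.0745 percent of counts on YFP plates and 0.0732 percent on Lgr5-EGFP plates. In the median well it took 0.0656 percent in YFP cells and 0.0692 percent in Lgr5-EGFP cells. Of 14 mineral handling genes 5 were higher and 2 lower, or 3 and 4 without TMM factors and 1 and 1 with Lgr5-EGFP plate 2 left out. The ferritin heavy chain Fth1, which stores iron, was among the higher members, at 3590.5, 3354, 3626, 2192 and 2794 CPM on YFP plates and 711 and 565 CPM on Lgr5-EGFP plates (log2 change 2.29 ± 0.21 (SE), edgeR adjusted p = 1.5e-05). The zinc importers split, with Slc39a4 (0.95) and Slc39a5 (1.02) higher and Slc39a8 (-1.16) lower. Slc1a5 was not called without Lgr5-EGFP plate 1 or 2 (edgeR adjusted p = 0.0554 to 0.144). Slc39a4 and Slc39a5 were not called without Lgr5-EGFP plate 2 (edgeR adjusted p = 0.0564 to 0.206).

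Of 13 vitamin and retinoid genes 7 were higher in YFP cells and 1 was lower. Rbp2, the intestinal retinol carrier, had 0 counts in Lgr5-EGFP wells and was at least 142-fold higher in YFP cells. The retinol dehydrogenase Rdh7 (log2 fold change 3.72), the retinal reductase Dhrs3 (1.67) and the retinal dehydrogenase Aldh1a1 (4.62, edgeR adjusted p = 1.5e-05) were higher too. The lower member was Slc23a1, a vitamin C transporter (-2.20). Isx, which restrains carotenoid uptake, stood at 67.1 ± 13.5 against 66.02 ± 1.77 CPM and was not called.

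**Figure D2:**
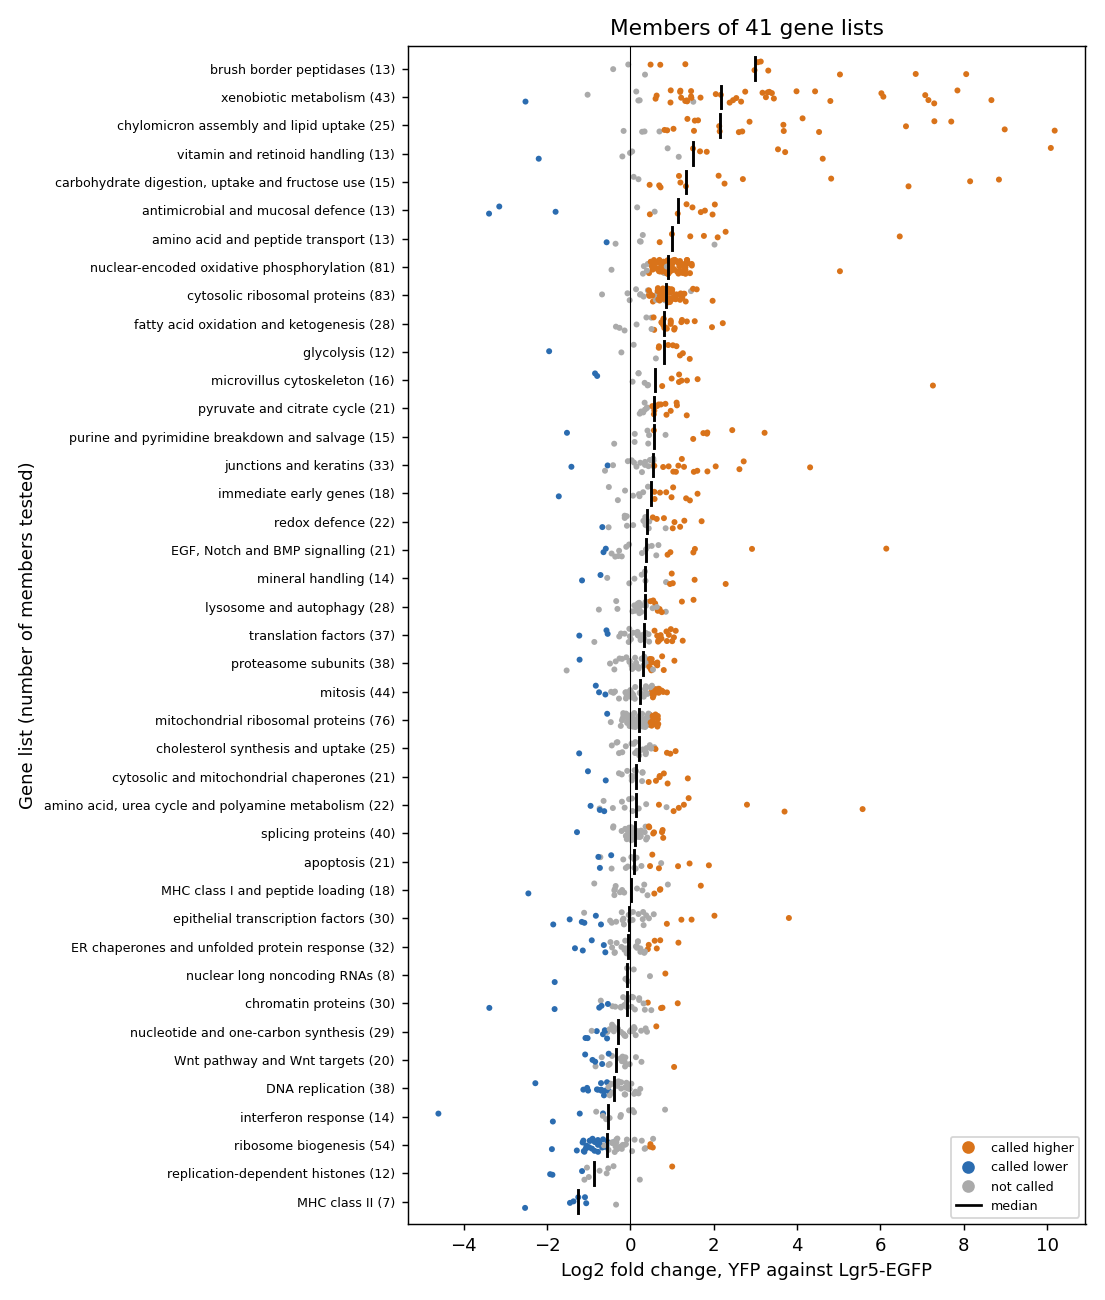
Log2 fold change (YFP against Lgr5-EGFP) of every tested member of 41 gene lists, 1 row per list ordered by median; orange points were called higher, blue points lower and grey points not called, and black ticks mark medians. Brush border peptidases (median 2.98) and xenobiotic metabolism (2.17) lie at the top and MHC class II (-1.25) at the bottom.

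Enzymes of foreign compound metabolism were higher in most cases. Of 43 tested, 37 were higher in YFP cells and 1 was lower (median log2 fold change 2.17), and with YFP plates 4 and 5 only 20 of 33 were higher and 2 lower. Ces2e, a carboxylesterase, stood at 689.8, 605, 606, 239 and 363 CPM on YFP plates and 18.9 and 17.3 CPM on Lgr5-EGFP plates (log2 change 4.80 ± 0.42 (SE), edgeR adjusted p = 1.2e-05). The alcohol dehydrogenase Adh1 stood at 910.1, 873, 853, 486 and 884 CPM and 58.5 and 104 CPM (3.30 ± 0.29 (SE), edgeR adjusted p = 1.3e-05). Cytochromes P450 Cyp4f14 (3.25) and the aldo-keto reductase Akr1c19 (2.54) went the same way. The P450 reductase Por, which feeds electrons to these enzymes, stood at 53.3 ± 9.54 against 46.3 ± 3.26 CPM and was not called (0.22 ± 0.19 (SE), edgeR adjusted p = 0.44). The lower member was Gsta3, a glutathione transferase (-2.52). Gstp1 had 210.4, 279, 204, 11.8 and 17.4 CPM on the YFP plates, so plates 4 and 5 lay below both Lgr5-EGFP plates (53.97 and 55.3 CPM) and plates 1 to 3 above, and it was not called.

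Gpx1, a glutathione peroxidase that removes hydrogen peroxide, stood at 1608, 1692, 1567, 1173 and 1536 CPM on YFP plates and 483 and 444 CPM on Lgr5-EGFP plates (log2 change 1.71 ± 0.17 (SE), edgeR adjusted p = 2.1e-05). Gpx2, the gastrointestinal form, was the only lower one of 22 redox genes, at 667, 697, 691, 737 and 738 CPM and 1202 and 1046 CPM (-0.67 ± 0.13 (SE), edgeR adjusted p = 0.0017). Of 22 redox genes 8 were higher, among them thioredoxin Txn1 (1.02), catalase Cat (1.06) and Prdx2 (0.81), and without TMM factors 5 were higher and 5 lower.

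Of 22 genes of amino acid, urea cycle and polyamine metabolism 8 were higher in YFP cells and 3 lower. Arg2, the mitochondrial arginase, stood at 98.7, 156, 146, 62.7 and 97.3 CPM on YFP plates and 2.70 and 2.00 CPM on Lgr5-EGFP plates (log2 change 5.57 ± 0.44 (SE), edgeR adjusted p = 5.6e-06). Oat, which makes or uses ornithine, stood at 1439.6, 1544, 1634, 1419.6 and 1432 CPM and 595 and 538 CPM (1.40 ± 0.14 (SE), edgeR adjusted p = 2.4e-05). Cps1 (1.29), Otc (0.69), Aldh18a1 (1.16), Glud1 (1.04), the alanine aminotransferase Gpt (3.70) and Maob (2.80) were the other higher members. The 3 lower ones were the polyamine synthases Srm (-0.95) and Sms (-0.63) and Phgdh of serine synthesis (-0.73), and without TMM factors 7 were higher and 8 lower. Odc1, the first enzyme of polyamine synthesis, was not called (0.04 ± 0.18 (SE), edgeR adjusted p = 0.91). Otc and Srm were not called without Lgr5-EGFP plate 2 (edgeR adjusted p = 0.0565 to 0.0903). Phgdh was not called without Lgr5-EGFP plate 1 (edgeR adjusted p = 0.108). Sms was not called without YFP plate 1 or 2 or Lgr5-EGFP plate 1 or 2 (edgeR adjusted p = 0.0982 to 0.215).

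For nucleotides, 7 of 29 synthesis and one-carbon genes were lower and 1 was higher (median log2 fold change -0.30), while 7 of 15 breakdown and salvage genes were higher and 1 was lower (median 0.57). The lower ones included Gart of purine synthesis, at 55.8, 62.98, 91.7, 66.7 and 62.5 CPM on YFP plates and 132 and 143 CPM on Lgr5-EGFP plates (-1.02 ± 0.16 (SE), edgeR adjusted p = 0.00054), and the pyrimidine enzymes Cad (-0.81) and Umps (-0.66). The higher one was thymidine kinase Tk1 (0.62). With DESeq2 3 synthesis genes were lower and 2 higher, and with 1 Lgr5-EGFP plate left out 3 or 1 were lower. Cytidine deaminase Cda (2.45), guanine deaminase Gda (3.22) and Pnp2 (1.84) were among the higher breakdown genes. The concentrative nucleoside transporter Slc28a2 was lower (-1.52). Of 25 cholesterol genes 4 were higher, at 0.60 to 1.09 from Fdps to Nsdhl, and 1 was lower, without TMM factors 0 higher and 2 lower, and with either Lgr5-EGFP plate left out 1 higher and 0 lower. The share of higher cholesterol genes, 16%, was near that of all genes. Cad and Tk1 were not called without Lgr5-EGFP plate 2 (edgeR adjusted p = 0.0602 to 0.318). Fdps and Umps were not called without Lgr5-EGFP plate 1 or 2 (edgeR adjusted p = 0.0828 to 0.173). Nsdhl was not called without Lgr5-EGFP plate 1 (edgeR adjusted p = 0.0955). Slc28a2 was not called without YFP plate 2 or Lgr5-EGFP plate 1 (edgeR adjusted p = 0.0561 to 0.25).

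Mitochondrial energy genes were mostly higher. Of 81 nuclear-encoded subunits of oxidative phosphorylation 74 were higher in YFP cells and 0 lower (median log2 fold change 0.91), and without TMM factors 49 were higher and 1 lower. The list took 5.12, 4.70, 4.30, 4.55 and 5.03 percent of counts on the YFP plates and 3.24 and 3.19 percent on the Lgr5-EGFP plates, with no overlap (exact permutation p = 0.0952, the smallest possible). The ATP synthase subunits Atp5b (1.32 ± 0.13 (SE)) and Atp5d (1.48 ± 0.14 (SE)) rose by similar amounts (edgeR adjusted p = 1.8e-05 and 1.9e-05). Atp5b stood at 2456, 2518, 2424, 2553 and 2481 CPM on YFP plates and 1026 and 961 CPM on Lgr5-EGFP plates. Cox7a1, an isoform known from heart and muscle, differed most, at 89.3 ± 32.8 against 2.68 ± 0.0242 CPM (5.03 ± 0.45 (SE)). Cox4i1 split the YFP plates, at 1548, 1643, 1363, 616 and 316 CPM with 649 and 605 CPM on the Lgr5-EGFP plates, and was not called.

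Genes of fuel oxidation upstream of the respiratory chain were mostly higher as well. Of 28 genes of fatty acid oxidation and ketogenesis 21 were higher and 0 lower (median 0.81), with Hadh (1.24), Acaa2 (1.36), Cpt2 (1.22) and the peroxisomal Ehhadh (2.22) as examples. Without TMM factors 12 were higher and 2 lower. Of 21 genes of pyruvate entry and the citrate cycle 14 were higher and 0 lower (median 0.58), or 9 and 5 higher with 1 Lgr5-EGFP plate left out. Mdh2 (1.35), Idh3b (1.11) and citrate synthase Cs (0.97) were among them. Of 12 glycolytic genes 8 were higher, such as Gapdh (1.43) and Ldha (1.26). Hexokinase Hk2, which takes glucose into the pathway, was the only lower one, at 44.4, 23.3, 31.7, 47.1 and 64.3 CPM on YFP plates and 168 and 149.9 CPM on Lgr5-EGFP plates (-1.95 ± 0.23 (SE), edgeR adjusted p = 6.3e-05).

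**Figure D3:**
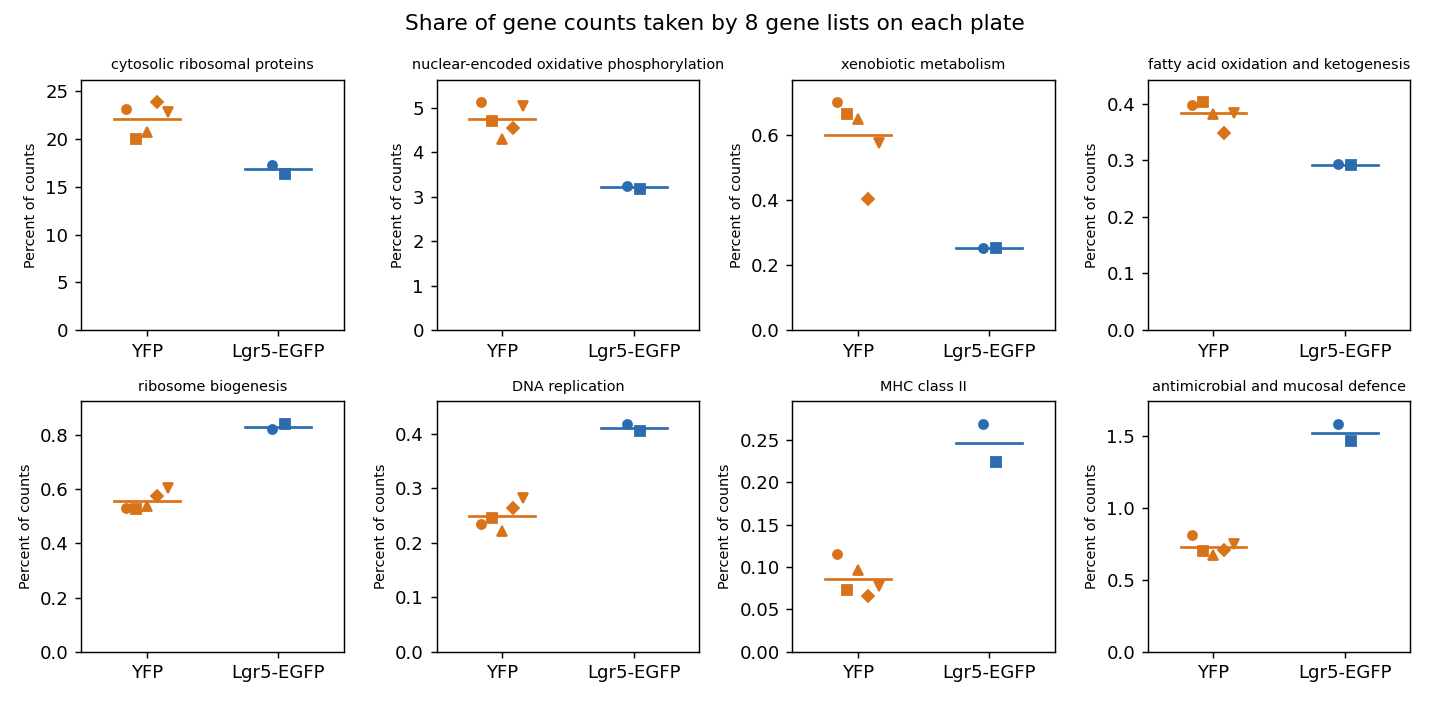
Share of all gene counts (percent, each panel with its own axis from 0) taken by 8 gene lists on each of 5 YFP plates (orange) and 2 Lgr5-EGFP plates (blue), with group means as lines. Ribosomal protein and oxidative phosphorylation shares were higher on every YFP plate, and ribosome biogenesis, DNA replication, MHC class II and defence shares were lower on every YFP plate.

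Ribosomes showed opposite changes in their parts and in their assembly. Of 83 cytosolic ribosomal protein genes 71 were higher in YFP cells and 0 lower (median log2 fold change 0.86), while of 54 ribosome biogenesis genes 28 were lower and 3 higher (median -0.56). Ribosomal proteins took 23.2, 19.96, 20.7, 23.8 and 22.9 percent of counts on the YFP plates and 17.3 and 16.4 percent on the Lgr5-EGFP plates. The biogenesis list took 0.532, 0.528, 0.538, 0.574 and 0.603 percent and 0.824 and 0.841 percent. Neither pair of ranges overlapped (exact permutation p = 0.0952 for each, the smallest possible). Without TMM factors 45 ribosomal protein genes were higher and 1 lower, and 45 biogenesis genes were lower and 0 higher.

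Rpl31 stood at 2164, 1637, 1809, 2309.7 and 1976 CPM on YFP plates and 558 and 449 CPM on Lgr5-EGFP plates (log2 change 1.97 ± 0.18 (SE), edgeR adjusted p = 1.3e-05). Rpsa, also a laminin receptor precursor, stood at 4788 ± 318 against 4074 ± 0.124 CPM and was not called (0.23 ± 0.12 (SE), edgeR adjusted p = 0.17). On the assembly side, the snoRNP protein Nop58 stood at 98.7, 80.8, 104, 106 and 115 CPM and 210.5 and 223 CPM (-1.12 ± 0.15 (SE), edgeR adjusted p = 0.00014). Rrp1b (-1.88), Nop14 (-1.10) and the helicase Ddx21 (-0.86) were lower too. The nucleolar genes Ncl and Fbl did not follow, with Ncl at 0.04 ± 0.17 (SE) and Fbl at 0.36 ± 0.14 (SE), neither called, and the 3 higher ones were Npm1 (0.48), Imp3 (0.48) and Polr1c (0.54). With either Lgr5-EGFP plate left out 13 or 11 biogenesis genes were lower. The row Rn45s, annotated as the ribosomal RNA precursor, was named after its values were seen. It stood at 1133, 1061, 1354, 1243 and 808 CPM on YFP plates and 3677 and 3145 CPM on Lgr5-EGFP plates (-1.61 ± 0.16 (SE), edgeR adjusted p = 3e-05). Ribosomal RNA mostly lacks the poly(A) tail that CEL-seq primes on, so this row is not taken as a level of the precursor. Ribosomal protein genes have many near-identical pseudogenes, and the sources used here do not give how reads that match several were counted. Imp3 and Polr1c were not called without Lgr5-EGFP plate 1 or 2 (edgeR adjusted p = 0.0743 to 0.274). Npm1 was not called without YFP plate 2 or 3 or Lgr5-EGFP plate 2 (edgeR adjusted p = 0.0518 to 0.35).

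Of 37 translation factors 15 were higher and 3 lower (without TMM factors 8 and 11). Tpt1 (1.26), the elongation factor subunit Eef1g (1.05) and Gnb2l1, the ribosomal scaffold RACK1 (1.01), were higher. The initiation factors Eif5b (-1.22), Eif3a (-0.57) and Eif2s1 (-0.54) were lower. Of 76 mitochondrial ribosomal proteins 17 were higher and 1 lower, but without TMM factors 0 were higher and 19 lower, and with 1 Lgr5-EGFP plate left out 3 or 1 were higher. Eif2s1 was not called without Lgr5-EGFP plate 1 or 2 (edgeR adjusted p = 0.115 to 0.123). Eif3a was not called without Lgr5-EGFP plate 1 (edgeR adjusted p = 0.247).

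Of 38 DNA replication genes 13 were lower in YFP cells and 0 higher (median log2 fold change -0.40), while of 44 mitosis genes 12 were higher and 3 lower (median 0.24). The origin recognition subunit Orc1 stood at 2.86, 5.48, 1.76, 3.92 and 1.74 CPM on YFP plates and 15.3 and 16.7 CPM on Lgr5-EGFP plates (-2.28 ± 0.45 (SE), edgeR adjusted p = 0.0023). Mcm4 of the replicative helicase (-0.80), Rfc1 (-1.04) and Hells (-1.01) were lower, and the sliding clamp Pcna was not called (0.20 ± 0.20 (SE)). Cdca3, which triggers mitotic entry, stood at 179, 208, 213, 255 and 255 CPM and 115 and 124 CPM (0.88 ± 0.17 (SE), edgeR adjusted p = 0.0021). Ube2c (0.79), Ccnb2 (0.76) and Birc5 (0.62) were higher, and Ttk, Cenpe and Top2a were lower. Birc5, Ccnb2 and Cenpe were not called without Lgr5-EGFP plate 1 or 2 (edgeR adjusted p = 0.0718 to 0.155). Orc1 was not called without Lgr5-EGFP plate 2 (edgeR adjusted p = 0.0529). Top2a was not called without YFP plate 1 or Lgr5-EGFP plate 1 or 2 (edgeR adjusted p = 0.0506 to 0.297). Ttk was not called without YFP plate 1, 2, 3 or 5 or Lgr5-EGFP plate 1 or 2 (edgeR adjusted p = 0.0501 to 0.187). Ube2c was not called without Lgr5-EGFP plate 1 (edgeR adjusted p = 0.123).

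The mitotic direction depended on the setting. Without TMM factors 1 mitosis gene was higher and 10 lower, with YFP plates 1 to 3 only 7 were higher and 5 lower, and with 1 Lgr5-EGFP plate left out 1 or 3 were higher. The replication genes were lower in every setting tried, 3 to 30 of those tested, with 0 higher. With DESeq2 7 replication genes were lower, and with Lgr5-EGFP plate 1 or 2 left out 7 or 3. Of 12 replication-dependent histone genes tested, whose transcripts mostly lack the poly(A) tail that CEL-seq primes on, 1 was higher and 3 lower, and clustered histone genes are close copies whose counts are uncertain.

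Malat1, a long RNA retained in the nucleus, stood at 140.2, 186, 176, 235 and 163 CPM on YFP plates and 709 and 542 CPM on Lgr5-EGFP plates (log2 change -1.81 ± 0.18 (SE), edgeR adjusted p = 2e-05). It was counted in 22.1% of thinned YFP and 70.6% of thinned Lgr5-EGFP wells (61.9% and 99.3% without thinning). Of the 8 nuclear long RNAs tested Malat1 was the only lower one, Snhg1 was higher (0.84), and the others, Neat1 and Kcnq1ot1 among them, were not called. Of 30 chromatin genes 4 were higher and 5 lower, including the histone variants H2afv (1.14) and H2afz (0.77) among the higher and Dek (-1.82) and the histone chaperone Supt16 (-3.38) among the lower. Of 40 splicing genes 7 were higher and 1 lower, Rbm25 (-1.28), without TMM factors 0 higher and 14 lower, and with Lgr5-EGFP plate 1 or 2 left out 4 or 0 higher. The shares of chromatin and splicing genes called higher were near that of all genes. Snhg1 was not called without Lgr5-EGFP plate 1 or 2 (edgeR adjusted p = 0.0622 to 0.0766).

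Of 32 endoplasmic reticulum genes 6 were higher, such as the disulfide isomerase P4hb (1.15), and 5 lower, Creld2 (-1.33), Ern2 (-1.14), Hyou1 (-0.93), Hspa5 (-0.64) and Pdia3 (-0.60), shares of 18.8% and 15.6% near those of all genes (14.7% and 11.0%). Of 21 other chaperones 7 were higher, led by the inducible Hspa1a (1.38), and 2 lower, Hsph1 (-1.02) and Hsp90aa1 (-0.59). Of 38 proteasome subunits 12 were higher and 1 lower, Psmd11 (-1.22). Without TMM factors the higher and lower counts were 1 and 16 for the reticulum, 2 and 8 for chaperones and 1 and 11 for the proteasome. Lysosome and autophagy genes had 8 of 28 higher, among them the cathepsin Ctsh (1.52), and 0 lower, or 2 and 4 without TMM factors. With Lgr5-EGFP plate 1 or 2 left out, the higher ones numbered 2 or 1 in the reticulum, 4 or 3 among chaperones, 2 or 3 in the proteasome and 3 or 2 in the lysosome. Hspa1a is nearly identical to Hspa1b, so its counts are uncertain. Ern2, Hsp90aa1 and Hspa5 were not called without Lgr5-EGFP plate 1 (edgeR adjusted p = 0.0596 to 0.203). Hyou1 was not called without Lgr5-EGFP plate 2 (edgeR adjusted p = 0.174). Pdia3 was not called without YFP plate 1, 3, 4 or 5 or Lgr5-EGFP plate 1 or 2 (edgeR adjusted p = 0.052 to 0.248).

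Immediate early genes, which respond within minutes to stimuli and to tissue dissociation, were partly higher. Of 18 tested 9 were higher and 1 lower (median 0.50), or 5 and 3 higher with Lgr5-EGFP plate 1 or 2 left out. Without TMM factors 4 were higher and 3 lower. As a share of counts the list did not rise. It took a mean of 0.179 percent on YFP plates and 0.185 percent on Lgr5-EGFP plates, with ranges that overlap. Egr1 stood at 145, 151, 153, 176 and 141 CPM on YFP plates and 85.5 and 67.9 CPM on Lgr5-EGFP plates (0.99 ± 0.16 (SE), edgeR adjusted p = 0.0005). Atf3 (1.34) and Ppp1r15a (1.61) of the stress response were higher, Jun was not called (-0.13 ± 0.17 (SE)), and Socs3, a feedback inhibitor of cytokine signalling, was lower (-1.72). Handling differences between the sorts were not tested. Of 21 apoptosis genes 6 were higher, among them Casp6 (1.42) and the cell cycle inhibitor Cdkn1a (1.89), and 3 lower, Tnfsf10, Cflar and Bax, with 2 and 5 without TMM factors and 3 and 0 or 2 and 0 with Lgr5-EGFP plate 1 or 2 left out. Bax was not called without YFP plate 1, 3, 4 or 5 or Lgr5-EGFP plate 1 or 2 (edgeR adjusted p = 0.057 to 0.206). Cflar was not called without Lgr5-EGFP plate 1 or 2 (edgeR adjusted p = 0.0592 to 0.0746). Tnfsf10 was not called without YFP plate 2, 3 or 5 or Lgr5-EGFP plate 1 or 2 (edgeR adjusted p = 0.0558 to 0.342). Cdkn1a differed by 1.13 without Lgr5-EGFP plate 1 and by 4.60 without plate 2.

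Of 33 junction, keratin and galectin genes 16 were higher and 2 lower, Ceacam1 (-1.41) and Cldn2 (-0.54). Lgals2, a galectin, stood at 3774, 3682, 3108, 3290.1 and 3509.7 CPM on YFP plates and 925 and 755 CPM on Lgr5-EGFP plates (2.05 ± 0.15 (SE), edgeR adjusted p = 3.8e-06). Krt8 (1.52), Krt19 (1.85) and Epcam (1.24) were higher, whereas E-cadherin, Cdh1, was not called (0.24 ± 0.14 (SE)). Of 16 microvillus genes 8 were higher, such as the intermicrovillar cadherins Cdhr2 (1.61) and Cdhr5 (1.36), and 2 lower, Actn4 (-0.85) and Eps8 (-0.80), with 5 and 1 without Lgr5-EGFP plate 2. Actn4 was not called without YFP plate 1 or Lgr5-EGFP plate 1 or 2 (edgeR adjusted p = 0.0539 to 0.186). Cldn2 was not called without YFP plate 1, 2 or 3 or Lgr5-EGFP plate 1 or 2 (edgeR adjusted p = 0.0537 to 0.269). Eps8 was not called without Lgr5-EGFP plate 1 (edgeR adjusted p = 0.105).

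Of 20 Wnt pathway genes and targets 5 were lower, Cd44 (-1.08), Lgr5, Tcf7l2 (-0.84), Rnf43 (-0.68) and Prom1 (-0.52), and 1 higher, the receptor Fzd5 (1.05), and 2 were lower with Lgr5-EGFP plate 1 left out. Cd44 stood at 77.3, 71.2, 66.99, 106 and 83.4 CPM on YFP plates and 170.01 and 163 CPM on Lgr5-EGFP plates (edgeR adjusted p = 0.00019). The feedback gene Axin2 stood at 183 ± 35.8 against 183 ± 25.03 CPM (-0.01 ± 0.18 (SE), edgeR adjusted p = 0.97) and Sox9 at -0.12 ± 0.16 (SE), neither called. Of 21 EGF, Notch and BMP genes 6 were higher and 2 lower (4 and 6 without TMM factors). The higher ones were the BMP-responsive Id1 (0.89), Id2 (0.96), Id3 (1.55) and Smad6 (2.92) and the EGF receptor ligands Hbegf (1.51) and Areg, which had 111 counts in YFP and 1 in Lgr5-EGFP wells (ratio 103, exact 95% counting interval 18.04 to 4089). The lower ones were Notch1 (-0.64) and Lrig1 (-0.59). Id2 and Rnf43 were not called without Lgr5-EGFP plate 2 (edgeR adjusted p = 0.0718 to 0.151). Tcf7l2 was not called without Lgr5-EGFP plate 1 (edgeR adjusted p = 0.0867). Lrig1 was not called without YFP plate 2 or Lgr5-EGFP plate 1 or 2 (edgeR adjusted p = 0.051 to 0.147). Notch1 was not called without YFP plate 1 or Lgr5-EGFP plate 1 or 2 (edgeR adjusted p = 0.0533 to 0.23). Prom1 was not called without YFP plate 1, 2 or 3 or Lgr5-EGFP plate 1 (edgeR adjusted p = 0.0516 to 0.447). Smad6 differed by 2.47 without Lgr5-EGFP plate 1 and by 3.85 without plate 2.

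Of 30 epithelial transcription factors 5 were higher and 6 lower, or 4 and 16 without TMM factors. The share called higher, 16.7%, was near the 14.7% of all genes. Gata4, which marks proximal small intestine, stood at 147, 130.1, 141, 125 and 108 CPM on YFP plates and 33.3 and 31.3 CPM on Lgr5-EGFP plates (2.02 ± 0.17 (SE), edgeR adjusted p = 9.8e-06). Hnf4g (1.47), Hnf4a (0.88), the liver X receptor Nr1h3 (1.23) and Maf were the others that were higher. Maf had 52 counts in YFP and 3 in Lgr5-EGFP wells (ratio 16.02, exact 95% counting interval 5.19 to 80.2). Sox4 stood at 38.6, 38.3, 42.3, 58.8 and 33.01 CPM and 129.5 and 161 CPM (-1.85 ± 0.17 (SE), edgeR adjusted p = 1.5e-05). The other lower ones were Ppargc1b (-1.46), Klf3 (-1.16), the bile acid receptor Nr1h4 (-1.10), Foxa1 (-0.83) and Cdx1 (-0.70). The part of the intestine along its length is not given in the labels for either group. Klf3 and Nr1h4 were not called without Lgr5-EGFP plate 1 (edgeR adjusted p = 0.117 to 0.235). Nr1h3 was not called without Lgr5-EGFP plate 1 or 2 (edgeR adjusted p = 0.076 to 0.0935). Ppargc1b was not called without Lgr5-EGFP plate 2 (edgeR adjusted p = 0.104).

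**Figure D4:**
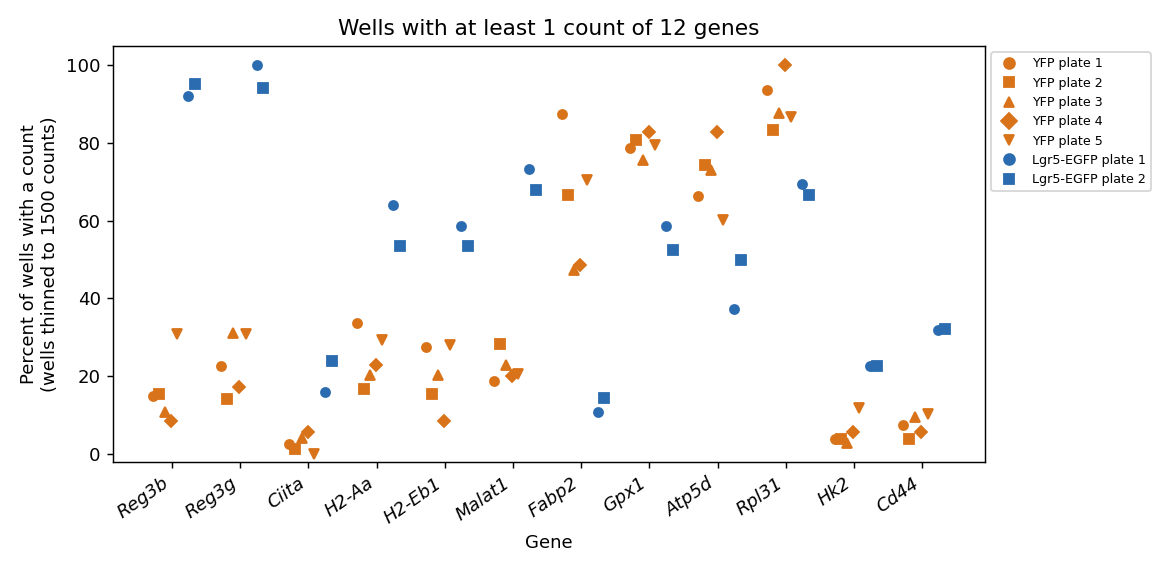
Share of wells with at least 1 count of 12 genes after thinning of each well to 1500 counts (percent of wells), on 5 YFP plates (orange) and 2 Lgr5-EGFP plates (blue). Reg3b and Reg3g were counted in at least 92.0% of Lgr5-EGFP wells and in at most 31.1% of YFP wells on any plate.

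Transcript length moved with the direction of change. Length here is that of each gene's longest annotated transcript, protein-coding where there is one, which need not be the transcript counted. Genes called higher had a median transcript length of 1951 bases and genes called lower 3800 bases, against 3020 bases for all 9019 tested genes with a length (GENCODE M21). In 5 equal bins from the shortest to the longest transcripts, the median log2 fold change was 0.26, 0.05, -0.01, -0.09 and -0.20, the share called higher fell from 30.4% to 5.43%, and the share called lower went from 5.60% to 17.5%. With a trend in length removed, 1152 genes were higher and 970 lower, including 55 of 81 oxidative phosphorylation genes and 48 of 83 ribosomal protein genes higher and 26 of 54 biogenesis genes lower. MHC class II kept 6 of 7 lower. The part of length in each list's result was otherwise not tested.

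**Figure D5:**
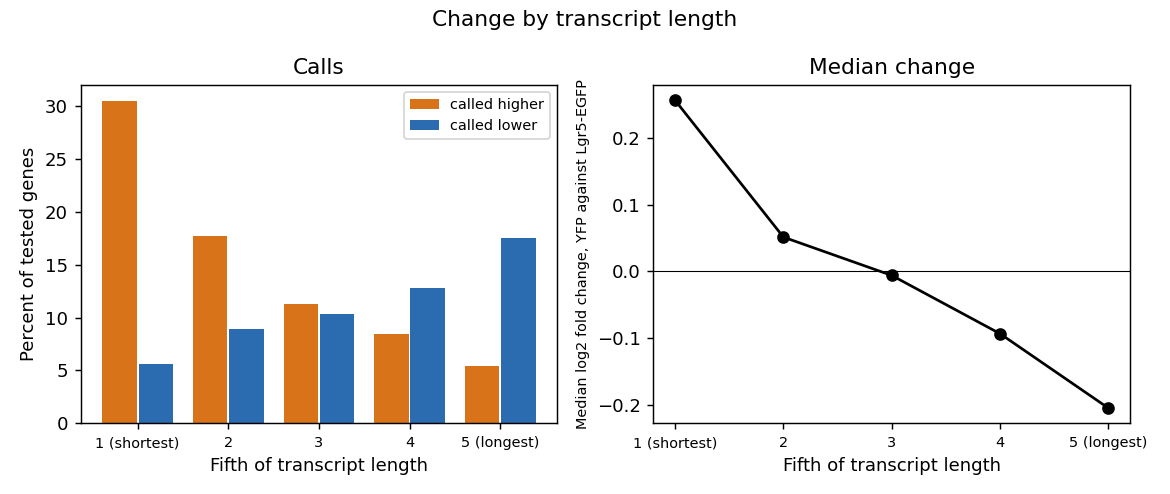
Share of tested genes called higher (orange) and lower (blue) in YFP cells (percent, left) and median log2 fold change (right) in 5 bins of transcript length with 1803 or 1804 genes each. The share called higher falls from 30.4% in the shortest bin to 5.43% in the longest.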

How the data were processed

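Single cells were profiled by CEL-seq from the 3′ end with spike-in RNAs. The deposited tables hold 1 column per well and 1 row per gene symbol (23538 genes and 92 spike-ins), with estimated counts of transcripts that the authors corrected for repeated molecular barcodes: of 1731238 values above 0, 1731218 correspond to a whole number of the 256 possible barcodes (tolerance 1e-06) and 20 lie at the upper limit of 1597.01. The submitters' processing notes name BWA 0.6.2-r126 and the build mm10; the sources used here do not give the annotation, the use of strand or the handling of reads that match several genes. Columns were matched to plates by their names.

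Estimated counts were rounded (by at most 0.495) and summed per plate over wells with at least 1500 counts. Genes passing edgeR's filter on low counts were tested with edgeR 4.0.16 in R 4.3.3 (TMM factors, quasi-likelihood F test, Benjamini-Hochberg adjustment over 9065 genes, false discovery rate 0.05). Standard errors are the log2 fold change divided by the square root of F. Shares of wells used wells thinned to 1500 counts. Single values were compared with a two-sided exact permutation test of 5 against 2 plates, which cannot give less than 0.0952. Intervals for low counts are exact and, like the limit of 3 counts, cover counting error only. Doublets were not called. The test was tested on simulated data with 9011 genes for the YFP against Lgr5-EGFP comparison: it recovered 72 of 100 genes changed 2-fold and 99 of 99 changed 4-fold and called 7 unchanged ones. The simulation gave every gene the same dispersion (0.0270) and both groups the same composition, and it changed only genes above a minimum level. It held no split between YFP plates, so these numbers need not hold for the real plates. Coordinates and transcript lengths are from GENCODE M21 (GRCm38) and promoters from RefSeq (GRCm38.p6).

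The members and gene lists were chosen with earlier results of these data known. Genes named are Lgr5, the 10 called genes with the greatest change in each direction (higher group of 50 CPM or more, no overlap of plates) and, per list, up to 4 called members with the smallest p and up to 2 abundant ones that were not called. Rplp2, Rn45s, Lyz1 and other list members, most of them named to complete a count of called genes, were chosen after their values were seen. Alternatives covered scaling, filters, depth, DESeq2 1.42.0, single plates left out, plate numbers as a block and, chosen after seeing the data, 4 further settings. Tuft cell markers (7 tested) and enteroendocrine markers (13 tested) had 0 and 3 higher and 0 lower members. Only the tables of these 7 plates were used. Values of some list members are not reported here.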

Additional observations from a re-analysis of the deposited data

Results flagged for a closer look

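In 271 quantities with 5 YFP plates, 13 had a plate far from the other plates by Dixon's criterion, which chance meets in about 1 of 20 groups. YFP plate 4 was lowest for Adh1 (486 CPM, next 853 CPM) and Aldh18a1 (137 CPM, next 198 CPM) and highest for Ccnb2 (219.6 CPM, next 149 CPM). YFP plate 5 was highest for Hspa5 (504 CPM), Txn1 (1939 CPM) and Iigp1, where 1.74 CPM was the gene's only count in YFP wells, and lowest for Rpsa (4241 CPM). It also had the highest share of counts of nucleotide and one-carbon synthesis genes, at 0.296% with the next plate at 0.263%. YFP plate 1 was lowest for Eif2s1 (85.9 CPM) and highest for Psme2 (504 CPM), and YFP plate 3 was highest for Id2 (52.9 CPM) and Retnlb (3.53 CPM, with 0 on the other YFP plates). Among wells of at least 3000 counts, thinned to 1500, YFP plate 2 had the most genes per well, 933 against 922.5 on the next plate.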

How the results depend on the processing

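Of 196 called genes named in the text, 105 stayed past the threshold in the same direction in each of the 22 other settings that tested them. The total of 2330 genes (1332 higher, 998 lower) moved by more than 1.5 times in these settings: without TMM factors it was 3957 (643 and 3314), with wells thinned to 1500 counts 539 (337 and 202, of 2899 tested), with YFP plates 4 and 5 only 1204 (744 and 460), and with wells weighted equally and TMM factors 1178 (866 and 312). Equal weights without TMM factors gave 457 higher, and DESeq2 552 lower. Lists with more than 50% of tested members called higher numbered 12 of 41, and 7 without TMM factors, 6 in thinned wells, 3 with equal weights and 6 with YFP plates 4 and 5 only. Leaving out 1 plate gave 1104 to 2446 genes, 665 to 1400 higher, 420 to 1046 lower and 6 to 15 such lists, the lowest totals without Lgr5-EGFP plate 2 (1104) or plate 1 (1199); the lone Lgr5-EGFP plate is then assumed to vary like the YFP plates. Plate numbers as a replicate block gave 2322 genes (1391 and 931), and same-numbered plates did not deviate together (r of 0.0155 for plates 1 and -0.0546 for plates 2), so the numbers are not read as pairs. Directions reversed for Imp3 with equal weights (-0.16) and, with YFP plates 4 and 5 only, for Gstp1 (-1.80) and Rplp2 (-4.15); in both settings the cause was not tested. The restrictions to plates 1 to 3 or 4 and 5, equal weights with TMM factors and the length trend were chosen after seeing the data. At 1500 counts per well, genes of low level were not detectable in most wells.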
